A study of Homo sapiens with 6 samples.

Results

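Peaks of YAP, TEAD and tagged YAP5SA were examined around 6 genes of epidermal growth factor receptor (EGFR) signalling and a related receptor kinase: EGFR, AXL, AREG, EREG, HBEGF and TGFA. A peak belonged to a gene when it overlapped the gene's span or the 100 kb on either side of it, with spans given to the nearest kb in hg19. By this rule 23 of 22804 listed peaks were chosen: 2 of 3867 YAP peaks, 13 of 9321 TEAD peaks and 8 of 9616 YAP5SA peaks. The data are ChIP-seq peak lists from CClp1, an established human cholangiocarcinoma cell line, with 1 library per group. The groups used here were an antibody against YAP, an antibody against TEAD (TEAD1 in the series' design text), and Flag-Bio-YAP5SA, a tagged YAP in which serines phosphorylated by LATS kinases were changed to alanine. Several YAP runs are named in the design text; which of them gave the YAP list was not established, and every YAP count below rests on that list. BirA is named in the design text as the control of the tagged protein; BirA, IgG and input were not used here, and no background measured in them is given. Neither the promoter that drives the tagged protein nor the number of clones is given in the sources used here. The series' title concerns YAP at super-enhancers, dense groups of enhancers, in growth and tumour formation. With 1 library per group no value has a replicate error, and no difference between libraries was tested.

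YAP is a transcriptional co-activator restrained by the Hippo pathway. It has no DNA-binding domain of its own and reaches DNA mainly through the TEAD factors, often at enhancers far from gene starts. EGFR is the cell surface receptor of a family of EGF-like growth factors. AREG (amphiregulin), EREG (epiregulin), HBEGF (heparin-binding EGF-like growth factor) and TGFA (transforming growth factor alpha) are such ligands, made as membrane proteins and released by proteases. AXL is a receptor tyrosine kinase of another family, whose ligand is GAS6. AREG and AXL are widely used as YAP target genes in epithelial cells.

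The starts of these genes were compared with the peaks first. The RefSeq promoter table (GRCh38.p14) holds 9 windows for the 6 genes, each with 250 bases before a start and 50 after it. EGFR, AXL and TGFA have 2 windows each. The letters of the core TEAD motif, GGAATG, were searched on both strands (CATTCC on the other strand), and those of the AP-1 motif, TGANTCA, which reads the same on both strands. TEAD letters occurred in 3 of the 9 windows, against 14.0% of all 35116 windows in the table, and AP-1 letters in 1 of 9, against 7.71%. With only 9 windows, some of the same gene, a difference from these shares was not tested. No match of one motif overlapped a match of the other. The 3 windows with TEAD letters are shown by their 250 upstream bases, because they are the starts of these genes where the letters of the factor's core motif occur; capitals mark the motif letters. EREG lies on the plus strand at chr4:74364895-74365144, the second EGFR start on the plus strand at chr7:55109589-55109838, and the second AXL start on the plus strand at chr19:41226505-41226754, all in GRCh38.p14.
EREG: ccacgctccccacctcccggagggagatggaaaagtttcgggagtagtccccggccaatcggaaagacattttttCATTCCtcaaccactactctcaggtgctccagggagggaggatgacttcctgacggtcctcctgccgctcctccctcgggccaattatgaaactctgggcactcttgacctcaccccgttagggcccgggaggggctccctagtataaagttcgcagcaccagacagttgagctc
EGFR second start: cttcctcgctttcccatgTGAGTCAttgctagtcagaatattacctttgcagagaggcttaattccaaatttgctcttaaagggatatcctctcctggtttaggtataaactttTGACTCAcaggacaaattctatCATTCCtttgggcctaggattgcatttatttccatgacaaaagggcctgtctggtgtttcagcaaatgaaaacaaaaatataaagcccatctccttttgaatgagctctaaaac
AXL second start: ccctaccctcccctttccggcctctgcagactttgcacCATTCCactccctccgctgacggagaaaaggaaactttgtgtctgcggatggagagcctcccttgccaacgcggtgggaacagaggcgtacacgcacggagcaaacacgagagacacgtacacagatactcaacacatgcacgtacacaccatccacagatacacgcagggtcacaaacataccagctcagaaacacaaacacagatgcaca
In the EREG window CATTCC lay 175 to 170 bases before the start. The window of the second EGFR start held TGAGTCA at 232 to 226 bases, TGACTCA at 136 to 130 bases and CATTCC at 114 to 109 bases before the start. Windows with letters of both motifs made up 1.45% of the table. In the window of the second AXL start CATTCC lay 212 to 207 bases before the start. The single windows of AREG and HBEGF, both windows of TGFA and the first windows of EGFR and AXL had neither motif. These are matches of letters in a reference sequence, not sites of binding.

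No peak of any list covered the start of one of the 6 spans. The nearest was a TEAD peak centred 2.54 kb before the EREG start, while the nearest YAP5SA peak was centred 3.04 kb before the same start and the nearest YAP peak 42.5 kb before that of EGFR. Of the 23 peaks, 8 lay inside a gene span (6 TEAD and 2 YAP5SA) and 15 outside. Both YAP peaks lay outside. The second starts in the RefSeq table lie 90.8 kb (EGFR) and 7.53 kb (AXL) after the first ones in GRCh38.p14, and 0.38 kb apart for TGFA. They were not placed on hg19, the build of the peaks, so whether a peak covers one of them was not checked directly. If these distances hold in hg19 and the first starts are the span starts, no peak covers a second start. The closest peak would then be the AXL TEAD peak centred 6.74 kb after the first start, beside the second at 7.53 kb. Positions inside a span were not divided into exons and introns, since no hg19 annotation was used here.

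**Figure D1:**
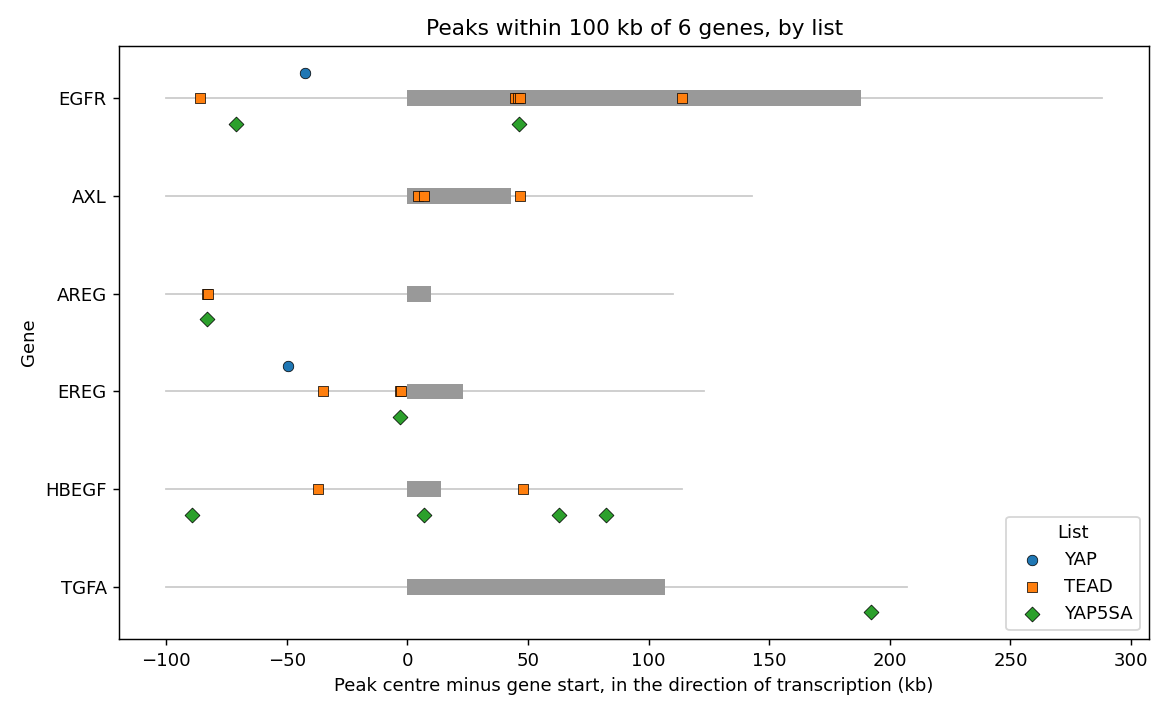
Positions of the 23 peaks (YAP blue circles, TEAD orange squares, YAP5SA green diamonds) relative to the start of each gene, in kb along the direction of transcription; grey bars are gene spans and thin lines the windows of 100 kb on each side. Peaks near AREG also appear in the EREG row, since the 2 windows overlap, and no peak is centred closer than 2.54 kb to the start of a span. The second starts of EGFR, AXL and TGFA are not drawn.

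EGFR, the receptor (chromosome 7, 55087 to 55275 kb in hg19), had the most TEAD peaks of the 6 genes and also the widest window. Its window of 388 kb held 5 TEAD peaks, 2 YAP5SA peaks and 1 YAP peak. Among 7582 bins of that width along chromosomes 1 to 22 and X, 44.2% held 1 or more TEAD peaks and 6.05% held 5 or more. For YAP5SA 67.2% held 1 or more and 34.6% held 2 or more, and for YAP 35.0% held 1 or more. Bins with as many peaks as the EGFR window were thus in the minority for each list, and fewest for TEAD.

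Of the EGFR TEAD peaks, 4 lay inside the gene, and 3 of these formed a run of 2.31 kb (chromosome 7, 55131505 to 55133818). The first peak of the run, from 55131505 to 55131669, scored 54.96, a score exceeding that of only 11.0% of the TEAD list. The score is the authors' value for each peak, read from its range as 10 times the negative log10 of the caller's p-value, and it is used only within a list. The second peak, from 55132757 to 55133053, scored 182 and the third, from 55133260 to 55133818, scored 372, above 82.5% and 92.6% of the list. Scores therefore differed widely within the run, with the highest at its downstream end, 46.5 kb after the gene start.

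The third peak of the run was met by a YAP5SA peak from 55133304 to 55133483. This YAP5SA peak scored 82.25, above 93.0% of its list, and lay wholly within the TEAD peak, of which it covered 32.2%. The 2 peak centres were 146 bp apart. The nearest YAP peak was 88.6 kb away. The highest-scoring TEAD peak near any of the 6 genes also lay inside EGFR, from 55200526 to 55200869, centred 114 kb after the start, with a score of 404. The nearest YAP5SA peak was 67.0 kb from it and the nearest YAP peak 156 kb.

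Upstream of EGFR the 3 lists each had 1 peak, and these were apart from each other. A TEAD peak from 55000989 to 55001315 scored 340.4 and was centred 85.8 kb before the start. A YAP5SA peak from 55015764 to 55015919, 14.4 kb from it, scored 58.2. The YAP peak, from 55044420 to 55044668, scored 60.6, above 59.6% of its list, and lay 28.5 kb from the YAP5SA peak and 43.1 kb from the TEAD peak. SEC61G and LANCL2 are the protein-coding genes next to EGFR in the RefSeq gene table, so a peak in the window may lie nearer to another gene.

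AXL, the second receptor kinase (chromosome 19, 41725 to 41768 kb), had TEAD peaks and no others. Its window of 243 kb held 3 TEAD peaks, a number reached by 7.67% of equally wide bins (33.1% held 1 or more). It held 0 YAP5SA peaks and 0 YAP peaks, where 51.5% and 23.8% of bins held 1 or more. The nearest YAP5SA peak to an AXL TEAD peak was 182 kb away and the nearest YAP peak 255 kb. AXL was the only one of the 6 genes with a TEAD peak within 10 kb after its start. That peak, from 41729490 to 41729665, was centred 4.58 kb after the start and scored 79.5. The next, from 41731650 to 41731828, was centred at 6.74 kb and scored 66.2, and the 2 were 1.98 kb apart. The third, from 41771581 to 41771767, lay 3.58 kb past the end of the span and scored 55.7. All 3 AXL scores were modest, above 53.1%, 37.6% and 17.4% of the TEAD list. The third score lies close to the lowest score listed, which is 50, while the first lies just above the list median of 76.2.

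The ligand genes EREG (75231 to 75254 kb) and AREG (75311 to 75321 kb) lie side by side on chromosome 4, and their windows overlap, so the same peaks were counted for both. The EREG window of 223 kb held 3 TEAD peaks, 1 YAP5SA peak and 1 YAP peak. Of equally wide bins, 31.2% held 1 or more TEAD peaks and 6.99% held 3 or more. For YAP5SA 48.3% and for YAP 22.2% held 1 or more. The AREG window of 210 kb held 2 of these TEAD peaks, the YAP5SA peak and 0 YAP peaks. In bins of that width 29.9% held 1 or more TEAD peaks and 12.2% held 2 or more. For YAP5SA 46.7% and for YAP 21.1% held 1 or more. Within 50 kb of AREG the counts were 0 TEAD and 0 YAP5SA peaks, against 3 and 1 within 50 kb of EREG. Bins as narrow as these windows were not counted. Most bins of 210 kb held no TEAD peak, and most no YAP5SA peak, so a count of 0 here is not unusual. No peak lay inside either span. The RefSeq gene table gives AREGB as another name of AREG. Whether hg19 holds a further copy of the gene, to which reads could map as well, was not established, so the absence of peaks at AREG itself cannot be read as absence of binding.

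A pair of TEAD peaks stood just upstream of EREG. The first, from 75227930 to 75228113, scored 79.3 and the second, from 75228327 to 75228587, scored 130.4, with 213 bp between them. They were centred 2.98 kb and 2.54 kb before the EREG start, and 83.0 kb and 82.5 kb before that of AREG. A YAP5SA peak from 75227891 to 75228040 overlapped the lower-scoring TEAD peak by 111 bp, with centres 56 bp apart, and missed the higher-scoring one by 286 bp. That YAP5SA peak scored 59.6, above 58.7% of its list. The overlap covered 60.3% of the TEAD peak and 74.0% of the YAP5SA peak, so each interval held most of its bases in common with the other.

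Further upstream a TEAD peak from 75195951 to 75196285 scored 250.5, above 88.0% of the list, and was centred 34.9 kb before the EREG start. The YAP peak, from 75181494 to 75181716, scored 57.3, above 45.0% of the YAP list, and lay 14.2 kb from that TEAD peak. The YAP and the YAP5SA peak were 46.2 kb apart. In the RefSeq gene table EREG stands between EPGN and AREG, and AREG between EREG and BTC. EPGN (epigen) and BTC (betacellulin) are EGF-like ligands too. Peaks upstream of EREG may therefore lie nearer to another ligand gene.

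**Figure D2:**
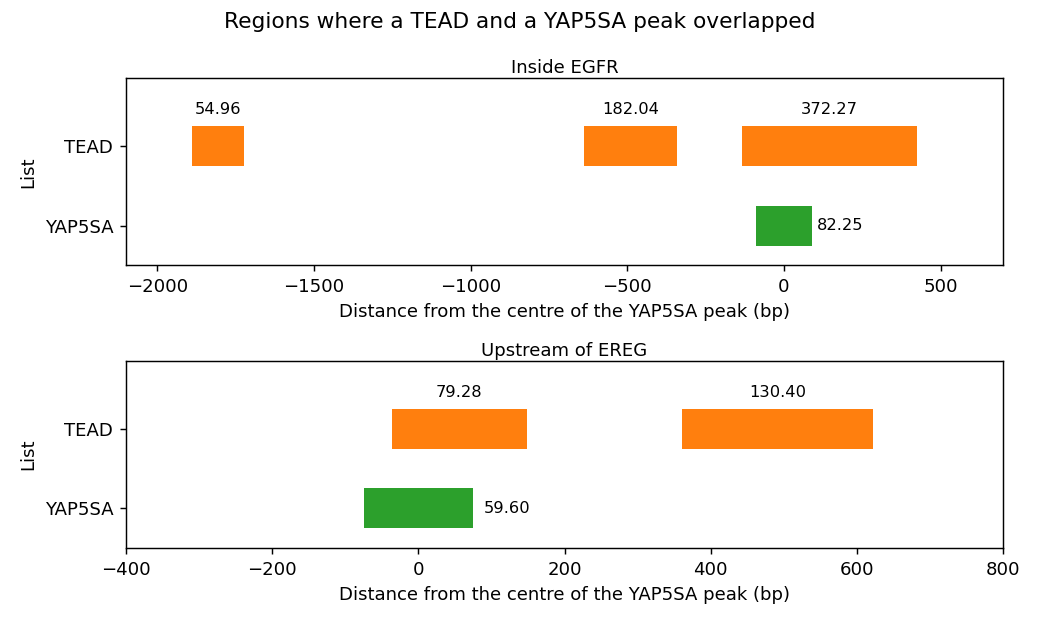
Intervals of TEAD and YAP5SA peaks in the 2 regions where they overlapped, in bp from the centre of the YAP5SA peak, with each peak's score beside it. Inside EGFR the YAP5SA peak (82.25) lies within the highest-scoring TEAD peak of a run of 3; upstream of EREG it meets the lower-scoring of a pair of TEAD peaks.

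HBEGF (chromosome 5, 139712 to 139726 kb), a ligand, had the most YAP5SA peaks of the 6 genes. Its window of 214 kb held 4 of them, a number reached by 0.967% of equally wide bins (47.4% held 1 or more). Within 50 kb of the gene the count was 2, so it depends on the distance chosen. It held 2 TEAD peaks (1718 of 13751 bins held 2 or more, and 30.5% held 1 or more) and 0 YAP peaks (21.3% held 1 or more). None of the 4 YAP5SA peaks overlapped a TEAD peak. One, from 139719051 to 139719177, lay inside the gene, centred 6.89 kb after its start, and scored 52.0. The others ran from 139643467 to 139643696, from 139662839 to 139663088 and from 139815108 to 139815290. They scored 59.8, 55 and 61.9. Their distances from the nearest TEAD peak were 34.2 kb, 14.8 kb and 51.9 kb, and the peak inside the gene was 40.8 kb from one. The 4 scores lay above 19.6% to 70.0% of the YAP5SA list, so these peaks were of middling or low score.

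The HBEGF TEAD peaks differed from each other in score. The peak from 139677853 to 139678220 scored 288, above 89.8% of the list, and lay 33.8 kb past the end of the gene. The peak from 139763021 to 139763176, 37.0 kb before the start, scored 56.7, above 18.9%. The nearest YAP peak to any HBEGF peak was 641 kb away. HBEGF stands between PFDN1 and SLC4A9 in the RefSeq gene table. Only 1 of the 4 YAP5SA peaks and neither TEAD peak lay inside HBEGF, so the others may lie nearer to, or inside, another gene.

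TGFA (chromosome 2, 70674 to 70781 kb), another ligand, had the fewest peaks. Its window of 307 kb held 0 TEAD and 0 YAP peaks, where 38.4% and 29.1% of equally wide bins held 1 or more, and 1 YAP5SA peak (59.4% of bins held 1 or more). That peak, from 70589211 to 70589412, lay 84.6 kb past the end of the gene and scored 50.54, above 4.08% of its list. It was 72.9 kb from the nearest TEAD peak. TGFA stands between FAM136A and ADD2 in the RefSeq gene table, so that peak too may lie nearer to another gene. A count of 0 in a list says that no peak passed the authors' threshold there, not that no protein was bound, since read depth is unknown.

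**Figure D3:**
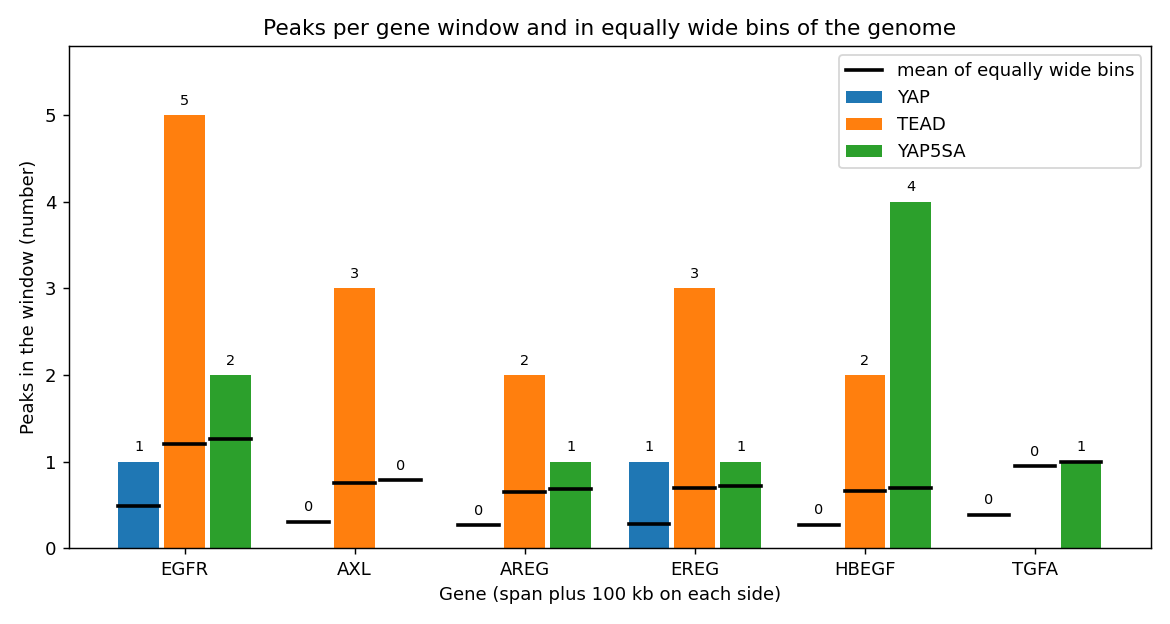
Number of peaks in the window of each gene (bars, with the number above; YAP blue, TEAD orange, YAP5SA green) and the mean number in equally wide bins of chromosomes 1 to 22 and X (black lines). TEAD counts lie above the mean for every gene but TGFA, with AREG and EREG sharing peaks. The largest YAP5SA count is that of HBEGF, 4 peaks against a mean of 0.693, and it is 2 within 50 kb. It was picked out after all counts were seen. The bins include assembly gaps and the windows are centred on chosen genes, so a difference between them was not tested.

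Sharing between the lists was then compared over all 23 peaks. Of the 13 TEAD peaks, 2 overlapped a YAP5SA peak (15.4%, exact Clopper-Pearson 95% interval 1.92 to 45.4), against 5.49% of the whole TEAD list. Of the 8 YAP5SA peaks, 2 overlapped a TEAD peak (25%, 3.19 to 65.1), against 5.44% of the whole list. Both counts are the same 2 pairs of peaks, seen from each list, so they are not separate evidence. Both intervals include the share of the whole list, so a difference from it was not detectable with so few peaks. The intervals treat peaks as independent, although some are neighbours, and cover counting error only.

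Endogenous YAP had no shared peak near these genes. None of the 13 TEAD peaks overlapped a YAP peak, against 4.48% over the TEAD list. The exact 95% interval allows a share of up to 24.7%. None of the 8 YAP5SA peaks overlapped a YAP peak, against 1.15% over the YAP5SA list, and here the exact interval allows up to 36.9%. Neither of the 2 YAP peaks overlapped a TEAD or a YAP5SA peak, where 8.28% and 2.64% of the YAP list did. The number of regions with all 3 lists was 0. Such regions were not counted over the whole series. With only 2 YAP peaks near the genes, this 0 is not a result about them.

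Sharing was also counted among the stronger TEAD peaks. Of the 13 TEAD peaks, 5 scored 250 or more, a value chosen after the scores were seen and just under the fifth score of 250.5, and 1 of the 5, inside EGFR, overlapped a YAP5SA peak. In the whole list 28.7% of the 1122 TEAD peaks with such a score did, and 14.0% overlapped a YAP peak, against 0 of the 5. With 5 peaks neither count can be told from the share of the list. The 4 without a YAP5SA peak were the one upstream of EGFR, the downstream one inside EGFR, the one 34.9 kb before EREG and the one past the end of HBEGF. The other TEAD peak with a YAP5SA overlap, upstream of EREG, scored 79.3.

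The TEAD peaks near these genes had a median score of 130.4, with a range of 54.96 to 404, where the list median was 76.2 and the interquartile range 60.4 to 133. Of the 13, 9 scored above the list median and 6 above the upper quartile; 4 of those 6 belonged to EGFR. The YAP5SA peaks had a median of 58.9 (range 50.54 to 82.25) beside a list median of 57.0, and 1 of the 8 exceeded the upper quartile of 64.4. The YAP peaks scored 57.3 and 60.6 beside a list median of 57.9. No peak of the 23 was wider than 1 kb. Median widths were 261 bp for TEAD, 182 bp for YAP5SA and 236 bp for YAP, beside 214, 164 and 312 bp in the lists.

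**Figure D4:**
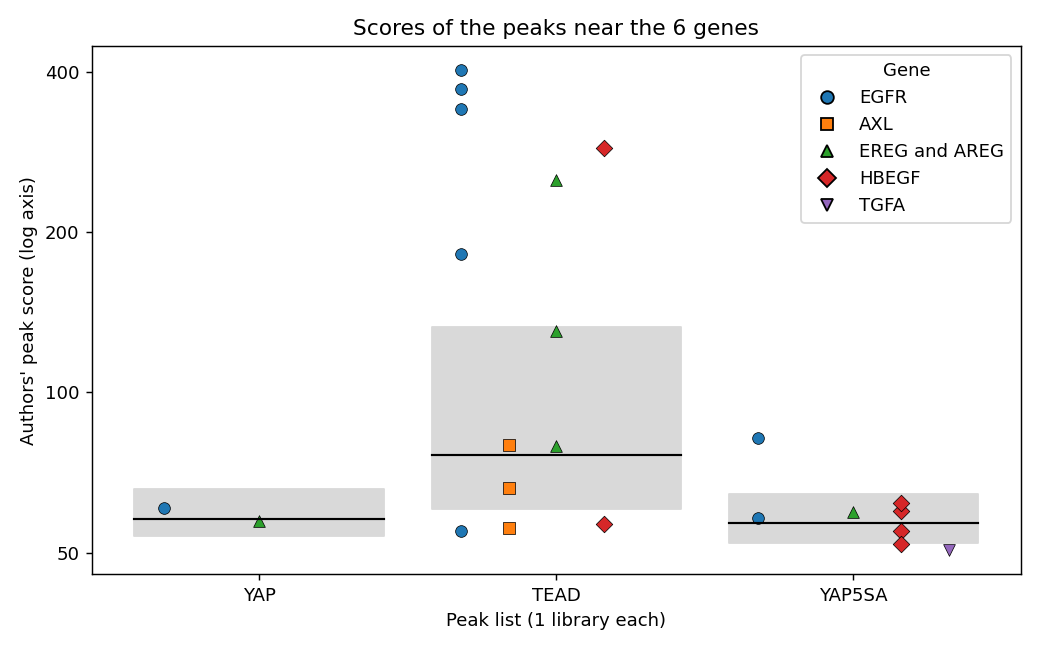
Authors' peak score on a log axis for each of the 23 peaks by list, with a symbol for each gene; black lines are the list medians and grey bands the interquartile ranges of the whole lists. In the TEAD list 4 EGFR peaks, 1 EREG and 1 HBEGF peak lie above the grey band, and 1 EGFR peak lies above the YAP5SA band.

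The only run of peaks near these genes was the one inside EGFR. Of the 13 TEAD peaks, 3 (23.1%) lay in a run of 3 or more with each within 12500 bp of the next, against 29.5% of the TEAD list. This is near the share of the whole list, and the 3 peaks are neighbours. None of the YAP or YAP5SA peaks lay in such a run, where 8.82% and 1.41% of those lists did. The pairs upstream of EREG and inside AXL fell short of a run by having 2 peaks each.

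The distance of 100 kb divided the peaks without a crowd at its edge. The farthest peak inside was a YAP5SA peak 89.1 kb from HBEGF, with a score of 61.9, and the nearest one outside was a YAP5SA peak 114 kb from TGFA, with a score of 67.5.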

How the data were processed

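Libraries of CClp1 cells, for YAP, TEAD and YAP5SA, each came with 1 ChIP-seq peak list. Alignment was to hg19 by Bowtie2, per the submitters' processing notes. Peak names begin with MACS, per the deposited files. The score of each peak is the authors' deposited value, from 50 to 3100 in each list. For the caller, its version, threshold and control library were not given in the sources used here, and a control may have been shared between lists. Peak lists carry no read depth, so the precision it gives is unknown.

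Starts were read as counted from 0 and are printed counted from 1; 1 start below 0 was set to 0. Spans of the 6 genes were given in kb, and strands came from RefSeq. Overlap meant 1 bp or more. Bins ran from the first to the last peak of each of chromosomes 1 to 22 and X, assembly gaps included. Every peak that met another list, and for each gene and list the highest-scoring and the one nearest the start, was to be named. The others are named too, there being few. The genes and settings were chosen with earlier results of these data known. No test across lists was made. Other genes of the pathway were not placed, as no hg19 annotation was used here. The overlap code was tested on simulated lists, with 200 of 200 planted overlaps found in each of 6 ordered pairs, and its 6 counts equalled those of bedtools 2.31.1. Software was scipy 1.17.1, matplotlib 3.10.9, pandas 2.3.3 and numpy 2.4.6 under Python 3.11.15. Alternatives were distances of 50 kb and 200 kb, the higher-scoring 50% of each list, a reciprocal overlap of 50%, centres within 250 bp, and run distances of 5 kb and 25 kb.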

Additional observations from a re-analysis of the deposited data

How the results depend on the processing

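Of 27 values recomputed for 7 counts, 21 were equal to the reported one or within 1.5 times of it. The 21 include every value of 0 beside a reported 0, for which no ratio exists. The number of YAP peaks rose from 2 to 4 within 200 kb, both added ones near TGFA, and was 1 in the higher-scoring 50% of the list. YAP5SA peaks numbered 4 within 50 kb and 5 in the higher-scoring 50%, against 8. TEAD peaks that overlapped a YAP5SA peak numbered 1 with a reciprocal overlap of 50%, against 2, since the YAP5SA peak inside EGFR covers 32.2% of the TEAD peak. The run inside EGFR ended in the higher-scoring 50% of the list, with 0 of 3 peaks left in a run, since its first peak scored 54.96. The TEAD count ran from 9 to 15 around 13. TEAD peaks that met a YAP peak, and regions with all 3 lists, numbered 0 under all 5 alternatives each. A reciprocal overlap, 50 kb or the higher-scoring 50% could only lower a count, so those values of 0 were fixed in advance. Near these genes the closest YAP and TEAD peaks were 14.2 kb apart, so the rule of centres within 250 bp could add none. Only the distance of 200 kb could have raised these counts. No paired analysis was possible because a group holds a single library, and for the same reason no replicate could be left out. Unknown read depth limits what an absent peak can show.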
